A study of Mus musculus with 2 samples.

Results

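The genes described here are the 8 E2F transcription factors, E2f1 to E2f8, and their dimer partners Tfdp1 and Tfdp2, as measured in mouse bone marrow-derived macrophages. They were chosen by name. A probe belonged to a gene when its transcript accession named that gene, which gave 10 genes and 14 probes out of 22910 genes named on the arrays. RNA came from 1 culture of primary macrophages, collected at day 5, and from 1 culture of self-renewing macrophages, collected after passage 4, both grown from bone marrow of C57BL/6 mice labelled male and both kept in 100 ng/ml recombinant human M-CSF, the cytokine that drives macrophage growth. According to the methods the self-renewing cells arose as colonies when most cells of the fourth passage had stopped dividing, and were used in bulk unless stated otherwise. Neither label names a further treatment or a changed allele. The comparison asks which genes differ between macrophages that keep dividing over passages and those of an early culture. In the paper, growth of primary macrophages slowed with passage, so that the day 5 culture may hold dividing cells. Mki67, a marker of dividing cells, was well above background on both arrays and 1.45-fold lower in self-renewing than in primary macrophages. The share of dividing cells in either culture was not tested. Each culture was hybridised to 1 array, and with 1 array per cell type there is no spread between replicates, so that every value is given with no test.

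E2F proteins bind DNA in front of genes needed for DNA synthesis and division. Most bind as a pair with a DP protein, which Tfdp1 and Tfdp2 encode, while E2F7 and E2F8 bind without one. E2F1, E2F2 and E2F3 activate their targets in late G1 once cyclin-dependent kinases have released them from the pocket protein RB. E2F4 and E2F5 mainly repress in resting cells together with the pocket proteins p107 and p130, E2F6 represses with Polycomb proteins, and E2F7 and E2F8 repress the activators' targets as S phase goes on. E2f1, E2f2, E2f7 and E2f8 are themselves well-known targets of E2F.

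All 14 probes were well above background on both arrays. Levels are log2 of the background-corrected intensity less that of the array's 75th percentile. The percentile, taken over gene probes, was an intensity of 434 in primary and 446 in self-renewing macrophages. Differences are self-renewing minus primary. All 10 markers of macrophages, among them Csf1r and Adgre1, were well above background on both arrays. Of 7 Y-linked genes, 4 were detected (well above background) only in self-renewing macrophages, and Xist only in primary macrophages, at 0.17 log2, although both samples are labelled male. The sex of the donors and the type of culture cannot be told apart here. Whether a sample was exchanged was not tested, and an exchange of the pair would turn the sign of every difference below. The members lie on autosomes. Of the 9 neutrophil markers on the arrays, 8 were detected in primary and 5 in self-renewing macrophages. Their summed level, on the linear scale, was 119 times the 75th percentile in primary and 6.56 times in self-renewing macrophages, where S100a8 and S100a9 were not well above background. Elane alone made up 5.99 of the latter, and without it the sums were 111 and 0.57. Some markers of other blood cells were also lower. Of 6 erythroid markers, 4 were detected in primary and 3 in self-renewing macrophages, with Hba-a1 at -1.72 log2, and their summed level was 1.73 and 0.74. Of 6 B cell markers, 4 and 2 were detected, with Cd79b at least 54.4-fold lower, and their summed level was 1.96 and 0.30. Of 7 dendritic cell markers, 4 and 2 were detected, while the summed level was 194 and 206, carried by Siglech. Ccr7 was at least 17.7-fold lower by its brighter probe and at -1.36 log2 by the other. Flt3 was at least 1.33-fold lower, and Zbtb46 and Siglech were at 0.62 and 0.09 log2. For T or NK cells the summed level was 8.05 and 7.76, for mast cells or basophils 0.34 and 0.27, and for stromal cells 0.20 and 0.25. The part of such cells in the results below was not tested. In bulk RNA, fewer cells of a kind and less RNA per cell cannot be told apart.

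Self-renewing macrophages had lower transcript levels of 9 of the 10 genes, all but E2f5, which was level. Among all 14003 genes detected on both arrays, 49.3% were lower by any amount (52.0% of those detected on either), and their median difference was 0.01 log2, whereas the median of the 10 members was -0.83 log2, or 1.78-fold lower. At least 2-fold lower were 2 members, E2f7 and E2f8, where 5.58% of the genes on both arrays were so, and 0 members were at least 2-fold higher, where 4.20% were so. By probe, 13 of 14 were lower. The scanner software's own error for a difference was 0.20 to 0.22 log2 for these probes, and probes for the same gene differed by a pooled SD of 0.32 log2 over 5077 genes with several probes on both arrays. Neither figure holds the spread between cultures.

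**Figure D1:**
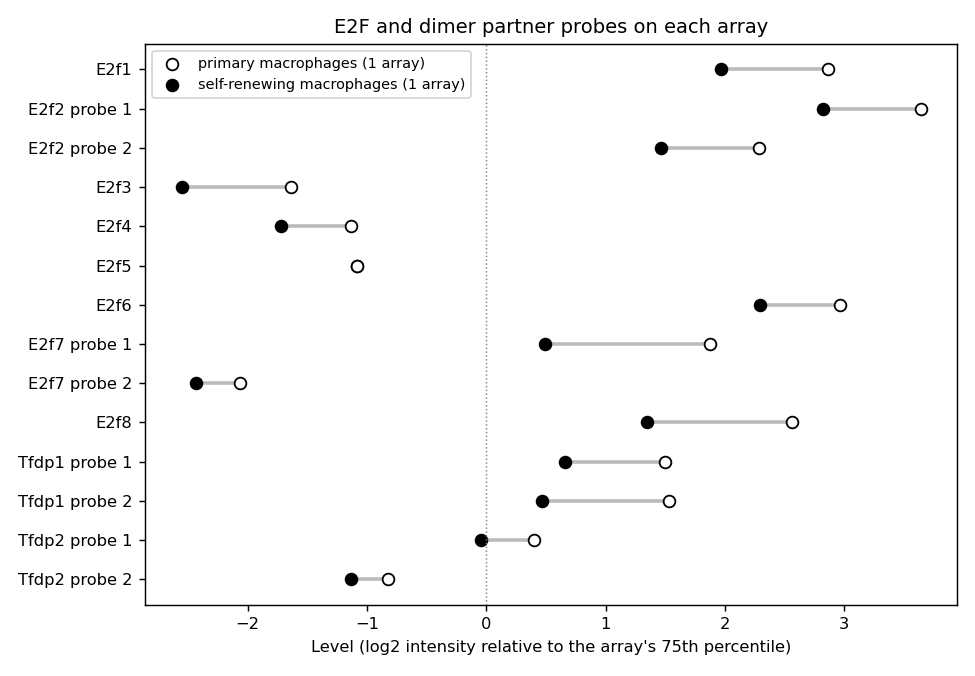
Level of each of the 14 probes in primary (open circles) and self-renewing macrophages (filled circles), in log2 intensity relative to the array's 75th percentile, 1 array each. The filled circle lies to the left for 13 probes, and for E2f5 both circles fall together at -1.08.

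Sequences around the starts of genes are shown for the members that had a match to the E2F consensus, with the match in capitals. The letters searched were TTTCCCGC, TTTCGCGC, TTTGCCGC and TTTGGCGC on both strands, in RefSeq windows of 300 bases (build GRCm38.p6, 250 before and 50 after an annotated start). A match occurred in 2.26% of all 32851 windows. By gene it occurred in 2.61% of the 27025 genes with a window, in 4.31% of the 11196 of them detected on both arrays, and in 4 of the 8 members that have one, E2f2, E2f3, E2f7 and Tfdp1. E2f6, which was lower too, had no match in its window, set on a start 56 bases inside the annotated gene. The E2f1 and E2f8 windows are set on starts 466 and 477 bases inside the annotated gene, and those of Tfdp2 on starts at least 62459 bases inside, so that the outer ends of these genes were not searched. For E2f7 (chr10:110745189-110745438, plus strand), E2f3 (chr13:29986064-29986313, minus strand) and Tfdp1 (chr8:13338501-13338750, plus strand) the 250 bases before the start are given, and for E2f2 (chr4:136172294-136172323, plus strand) 30 bases that lie after the start.
E2f7: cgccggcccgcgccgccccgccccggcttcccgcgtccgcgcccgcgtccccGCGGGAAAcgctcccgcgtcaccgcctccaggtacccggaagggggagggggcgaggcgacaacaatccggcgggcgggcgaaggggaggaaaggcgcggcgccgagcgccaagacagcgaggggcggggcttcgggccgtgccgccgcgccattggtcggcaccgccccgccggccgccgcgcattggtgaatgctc
E2f3: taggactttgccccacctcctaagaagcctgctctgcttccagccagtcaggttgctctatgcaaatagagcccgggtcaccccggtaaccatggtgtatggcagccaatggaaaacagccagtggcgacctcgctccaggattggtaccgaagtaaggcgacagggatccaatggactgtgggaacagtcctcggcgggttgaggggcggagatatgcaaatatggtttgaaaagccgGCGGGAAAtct
Tfdp1: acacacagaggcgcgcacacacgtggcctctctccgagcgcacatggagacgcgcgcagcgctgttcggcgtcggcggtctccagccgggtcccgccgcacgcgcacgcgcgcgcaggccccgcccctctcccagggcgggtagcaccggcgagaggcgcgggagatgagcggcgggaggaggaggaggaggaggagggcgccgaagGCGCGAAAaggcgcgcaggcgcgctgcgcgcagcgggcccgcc
E2f2: cgaatttggcggcatatagTTTGGCGCtaa
The E2f3 match began 11 bases before the start and the E2f7 match 198 bases before it, and each read GCGGGAAA on the strand of the gene. The Tfdp1 match, GCGCGAAA, began 43 bases before the start used here. A further motif, the cell cycle homology region TTTGAA or TTCGAA that the MuvB complex recognises, was searched likewise on both strands. It occurred in 19.2% of all windows. By gene it occurred in 21.7% of the genes with a window and in 17.4% of those detected on both arrays. Of the 8 members with a window, 3 had it, E2f2, E2f3 and E2f8, and it overlapped none of the E2F matches in these genes. These are matches of letters, and no binding was measured.

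The activators were lower by nearly the same amount. E2f1, the founding activator of the family, had an intensity of 3158 in primary and 1747 in self-renewing macrophages, or levels of 2.86 and 1.97 log2. Its difference was -0.90 log2, 1.86-fold lower, and 6.46% of the genes on both arrays were as low or lower. E2f2, an activator of the same class, was measured by 2 probes. The brighter gave 5405 and 3150, a difference of -0.82 log2, and the dimmer gave 2110 and 1235, a difference of -0.81 log2. The probes thus lay within 0.01 log2 of each other. E2f3, the other activator, was dim, at an intensity of 140 and 76.1, and its difference was -0.92 log2. The activators spanned 0.10 log2, less than the scanner error of any of them. On the self-renewing array the E2f3 signal was 2.53 log2 over the dimmest probe that was detected, and with a model-based background correction (normexp) its difference shrank to -0.60 log2, while the other activators stayed at -0.95 and -0.90 log2.

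By the probes that represent each gene, E2f7 and E2f8, the atypical repressors, differed most. E2f7 went from an intensity of 1592 to 628 by its brighter probe, a difference of -1.38 log2 or 2.61-fold lower, and 3.28% of all genes on both arrays were as low. Its second probe was dim, with 104 and 82.5, and gave -0.37 log2, 1.29-fold lower. The E2f7 probes went the same way but lay 1.01 log2 apart, a gap reached by 3.38% of the 3939 genes with exactly 2 probes on both arrays. The mean over both was -0.88 log2, so that only the brighter probe places E2f7 past 2-fold, and with the mean E2f7 came after E2f8, Tfdp1, E2f3 and E2f1. E2f8, the closest relative of E2f7, had 1 probe, at 2564 and 1137. It was 2.32-fold lower, at -1.21 log2, and stayed past 2-fold under every alternative tried, from -1.23 to -1.03 log2.

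The other repressors lay closer to the bulk of the genes. E2f6, which works without pocket proteins, was at 3385 and 2183, a difference of -0.67 log2. E2f4, the most common E2F of resting cells, was at 198 and 136, a difference of -0.59 log2, and 11.5% of all genes on both arrays were as low. E2f5, its partner in the same class, was at 205 and 211, a difference of 0.00 log2. E2f5 had no fixed direction, with -0.09 to 0.19 log2 over the alternatives, and it was the 1 member of which this was so. Relative to E2f5 within the same arrays, which removes the scaling between them, E2f1 was 1.86-fold, E2f8 2.32-fold and E2f7 2.61-fold lower. Because E2f5 was level, these folds repeat those above and add no support to them. They also rest on a single dim E2f5 probe with a scanner error of 0.21 log2.

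Activators and repressors did not part as groups. The median was -0.90 log2 for the 3 activators and -0.67 log2 for the 5 repressors, -0.22 log2 apart, and the repressors reached from -1.38 to 0.00 log2, on both sides of the activators. Pair by pair, E2f7 and E2f8 were lower than each activator in 6 of 6 pairs, by 0.30 to 0.56 log2, and E2f4, E2f5 and E2f6 were higher than each in 9 of 9, by 0.15 to 0.92 log2. With normexp the second count was 8 of 9, since E2f6, at -0.64 log2, was then lower than E2f3. With the mean over probes the first count was 4 of 6, and by its second probe E2f7 would stand above the activators. The gap was larger than the between-probe SD of 0.32 log2 in 5 and in 4 of these pairs, and that between E2f8 and E2f1 equalled it as rounded. This SD is that of a single probe, whereas a gap holds the probe spread of both genes. It is thus too narrow a yardstick, and the counts overstate how far the pairs stand apart. With no spread between cultures, the order of the members was not tested.

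**Figure D2:**
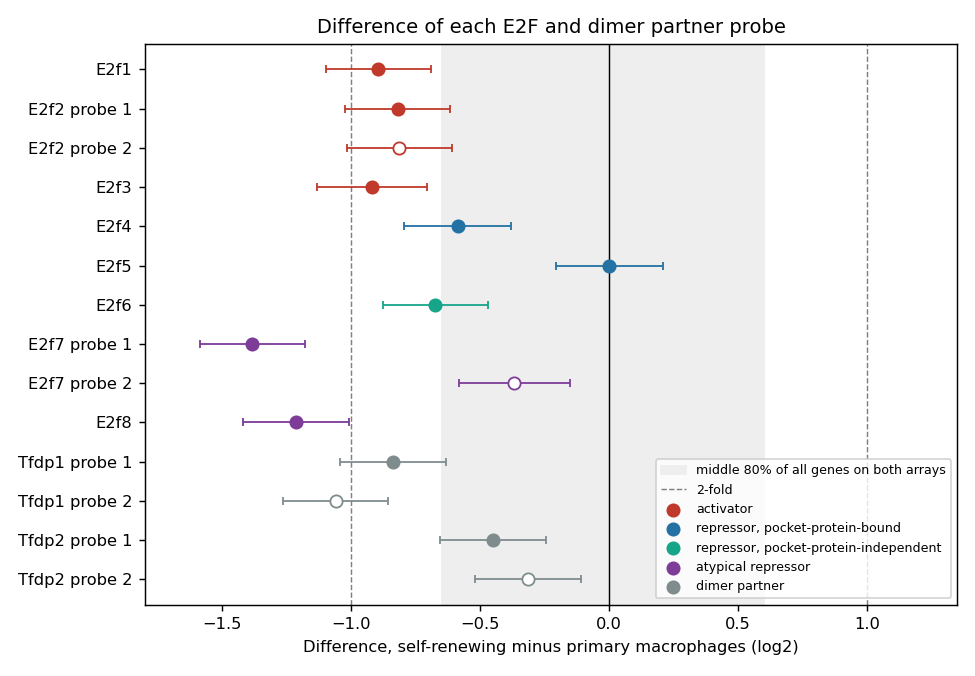
Difference of each probe, self-renewing minus primary macrophages (log2), coloured by role. Filled circles are the probes that represent the gene, open circles further probes, bars the scanner software's error of the difference. The grey band runs from the 10th to the 90th percentile of all genes on both arrays, -0.65 to 0.60, and E2f4, E2f5, Tfdp2 and the second E2f7 probe lie inside it.

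Both dimer partners were lower, Tfdp1 more than Tfdp2. Tfdp1, the main partner in most cells, gave 1224 and 704 by the probe that represents it, a difference of -0.84 log2, and 1252 and 618 by the other, a difference of -1.06 log2. The Tfdp1 probes thus stood on either side of 2-fold. Tfdp2 gave 573 and 432, a difference of -0.45 log2, and by its dimmer probe 245 and 203, a difference of -0.31 log2. Each Tfdp1 probe was further from 0 than each Tfdp2 probe.

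Position along the chromosome was looked at through the 10 nearest genes measured on both arrays around each member. Over these 100 neighbours 57 were lower and 8 were at least 2-fold lower. Among all genes on both arrays 49.3% were lower and 5.58% at least 2-fold lower. Of 10 neighbours each, 3 of E2f7, 2 of E2f3 and 2 of E2f4 were at least 2-fold lower. The median per member lay between -0.30 and 0.24 log2. No member stood in a run of genes whose median was as low as its own difference, apart from E2f5, whose neighbours had a median of -0.14 log2.

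Among the pocket proteins, Rbl1, which encodes p107 and is itself an E2F target, was 1.95-fold lower at -0.96 log2, and its other probes gave -0.80 and -0.79 log2. Rbl2, which encodes p130, the pocket protein of resting cells, was at -0.96 log2 on the primary and -0.27 log2 on the self-renewing array, a difference of 0.69 log2. Rb1 itself differed by 0.05 log2, and by 0.24 log2 with its other probe. The RB family thus held a lower, a level and a higher member, and no member passed 2-fold.

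Of the 8 G1 cyclins and kinases that act on RB, 3 were at least 2-fold lower and 0 at least 2-fold higher, with a median of -0.75 log2. Over all 15515 genes that either array detected, 8.38% were at least 2-fold lower and 4.76% at least 2-fold higher. Ccnd2, cyclin D2, differed most, at -3.33 log2, and its other probes gave -4.24 and -2.40 log2. Ccne1, cyclin E1, which completes the release of E2F, was 4.10-fold lower at -2.04 log2. Ccne2 was well above background in primary macrophages only and was at least 3.01-fold lower. Ccnd1 and Ccnd3, the other D cyclins, differed by 0.65 and 0.17 log2, while Cdk4, Cdk6 and Cdk2 differed by -0.49, -0.85 and -0.65 log2.

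The MuvB core joins E2F4 and p130 in resting cells and B-Myb and FoxM1 in dividing cells. The 5 genes of the core had a median of -0.34 log2 and 0 were at least 2-fold lower, and with Mybl2 and Foxm1 the median over 7 was -0.39 log2. Mybl2, which encodes B-Myb, was at -1.67 log2 and Foxm1 at -0.82 log2. Of the core, Lin9, Lin54 and Rbbp4 were at -0.34 to -0.39 log2, and Lin37 and Lin52 at 0.06 and 0.33 log2. For Lin52 a second probe went the other way, at -0.29 log2. A second Lin9 probe was level, at -0.003 log2, and the median of the core is the value of the brighter Lin9 probe.

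In the Polycomb complex that E2F6 belongs to, the median over 12 genes was -0.20 log2. Rnf2, its ubiquitin ligase, was 3.12-fold higher, and its other probes gave 1.48 and 1.94 log2. The remaining genes stayed under 2-fold, from Rybp at -0.78 log2 to Ring1 at 0.50 log2, with Mga, the subunit that binds DNA with Max, at -0.47 log2 and Max at 0.09 log2. Of 10 germline genes that this complex is known to silence, 7 were detected, 2 of them on both arrays. Stag3 was at least 8.99-fold lower, and Hormad1 and Majin were at least 2-fold higher by their bounds. Tuba3a, at -0.71 log2, and Tuba3b have near-identical relatives and are uncertain. Among proteins that bind E2F or take part in its turnover, Ccnf, which marks E2F proteins for destruction, and Topbp1, which binds E2F1, were at -0.89 and -0.79 log2, and Skp2, Arid3a and Fzr1 at -0.47, -0.30 and 0.03 log2. Second probes gave -0.78 log2 for Ccnf, -1.03 log2 for Topbp1 and -0.24 log2 for Fzr1.

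The targets of E2F in G1 and S phase were lower as a list and by more than most of the E2F genes. Among genes detected on either array, 52.0% were lower and 8.38% at least 2-fold lower. Of the targets all 40 were lower, 25 of them, or 62.5%, at least 2-fold, with a median of -1.16 log2. The lowest measured on both arrays were Ccne1, Orc1, a subunit of the origin recognition complex, at -2.02 log2 and Uhrf1, which maintains DNA methylation, at -1.60 log2. Among those nearest to 0 were Msh6, a mismatch repair gene, at -0.58 log2 and Cdc25a, a phosphatase of cyclin-dependent kinases, at -0.67 log2. The list shares Rbl1, Ccne1 and Ccne2 with those above. The 27 genes of G2 and mitosis, which MuvB, B-Myb and FoxM1 drive, were also all lower (24 of 27 with the authors' scaling, given below). They were lower by less, with a median of -0.52 log2. The share at least 2-fold lower was 3.70%, below the 5.58% of all genes on both arrays. It was 1 gene, Aurkb, at -1.08 log2. Bub1 and Birc5 followed at -0.98 and -0.93 log2, and Cdc25b, Hmmr and Cenpa were nearest to 0, at -0.02, -0.05 and -0.18 log2. For Cdc25b a second probe gave 0.07 log2. The difference between these lists was not tested.

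The lists were named for known ties to E2F, MuvB or FoxM1. Different motifs in their windows thus follow in part from how the lists were made. The E2F letters occurred in the windows of 16 of 32 G1 and S phase targets and of 1 of 23 G2 and mitosis targets. Among all genes with a window detected on both arrays the share was 4.31%. The cell cycle homology region occurred in 5 and 18, where that share was 17.4%. Over all genes measured on both arrays, the 482 with the E2F letters in a window had a median of -0.08 log2, and 58.9% were lower, 6.22% at least 2-fold lower and 1.66% at least 2-fold higher. The 10714 genes with windows that lacked them had a median of 0.01 log2, and 48.6% were lower, 5.39% at least 2-fold lower and 4.19% at least 2-fold higher. Without the members and both target lists, the remaining 461 genes with the letters had a median of -0.06 log2, and 57.0% were lower, 4.12% at least 2-fold lower and 1.74% at least 2-fold higher.

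Apoptosis genes that E2F1 is known to induce lay near 0 as a list. Their median was -0.06 log2 over 10 genes, or 0.12 log2 with the authors' scaling, 0 were at least 2-fold lower and 2 at least 2-fold higher. These were Pmaip1, at 1.31 log2, and Bbc3, at 1.29 log2, which encode the death proteins Noxa and Puma. Apaf1, the scaffold of the apoptosome, was at -0.37 log2, and a second Apaf1 probe at 0.01 log2. Casp8, Siva1 and Trp73 lay between -0.35 and -0.02 log2, Bcl2l11 at 0.00 log2 and Map3k5 at 0.28 log2. Other probes for Bcl2l11 ranged from -0.58 to 0.38 log2.

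**Figure D3:**
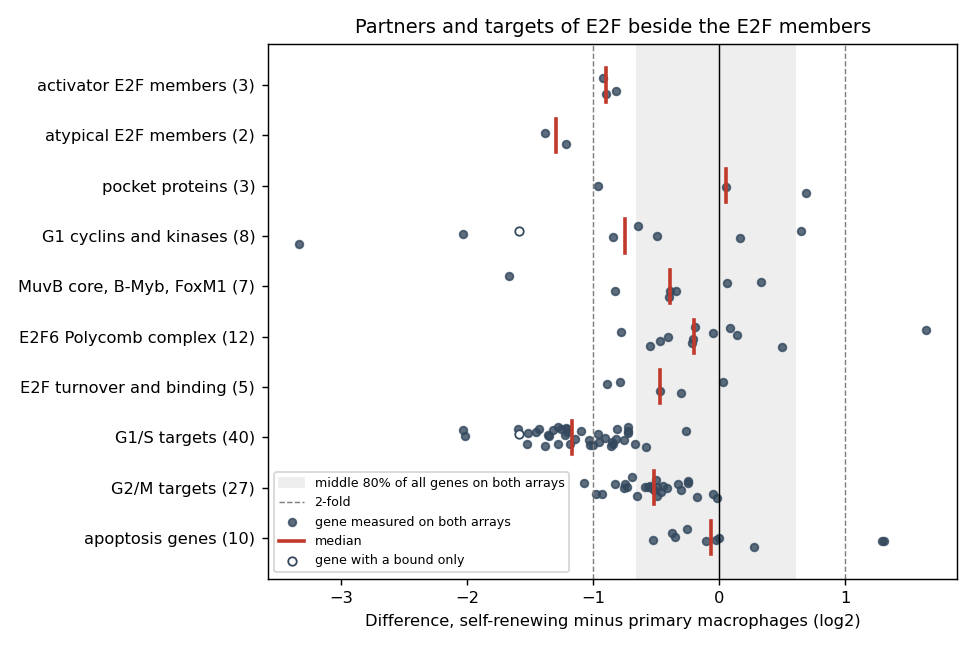
Difference of each gene, self-renewing minus primary macrophages (log2), in lists of E2F partners and targets, with the number of genes in parentheses, the median in red and open circles for genes well above background on 1 array only. The medians run from -1.30 for the atypical members and -1.16 for the G1/S targets to 0.05 for the pocket proteins.

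The authors also deposited values scaled by 1 constant per array, which shift all differences up by 0.19 log2. With them the median of the members was -0.64 log2, 9 of 10 were lower, and E2f7 and E2f8 were still at least 2-fold lower. Of the G1 and S phase targets all 40 were then lower and 19 at least 2-fold lower, and of the G2 and mitosis targets 0 were at least 2-fold lower. Over all genes, the number at least 2-fold lower and higher was 1300 and 739 here, and 1069 and 1035 with the authors' scaling.

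**Figure D4:**
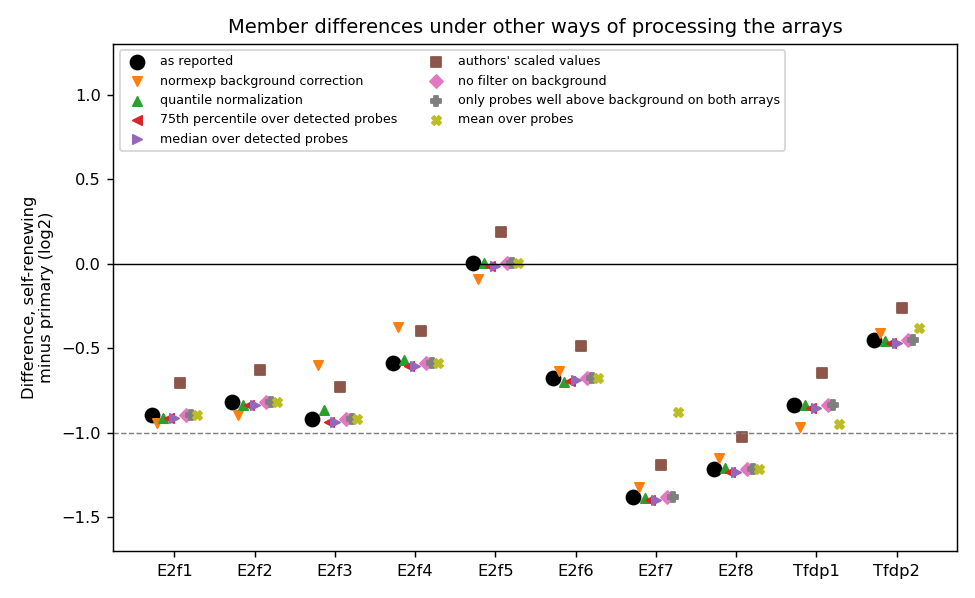
Difference of each member (log2, self-renewing minus primary macrophages) as reported (black) and under 8 other ways of processing the arrays. E2f5 lies on both sides of 0, and E2f7 is above -1 with the mean over its probes only.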

How the data were processed

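Each RNA was hybridised in 1 colour to an Agilent mouse expression array (SurePrint G3). The authors deposited the scanner output of Feature Extraction 11.5.1.1, with the intensity of each spot raw and after background subtraction and detrending, and the software's error, and a table of the same intensity times 1 constant per array. Here log2 intensity was taken relative to each array's 75th percentile. Control spots were dropped, as were the outlier spots (63 per array), before repeated spots were averaged. Accessions in a table of GRCm38.p6 named 32988 of 56598 probes. The array design uses an earlier build, so coordinates are those of the RefSeq promoter windows only. A gene was represented by its brightest probe well above background, and all probes of members are given. Where only 1 array detected a gene, its fold is a bound, set against the dimmest detected signal of the other array or the gene's own signal there, whichever was higher. No spot was saturated (0 on each array).

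No test was made, and the number of arrays limits the precision. Differences were counted at 2-fold, a threshold chosen here. The members and lists (pocket proteins, G1 cyclins and kinases, MuvB, the E2F6 complex, germline genes, turnover, targets, apoptosis) were chosen with earlier results of these data known. Genes named are all members, the short lists, and the 3 largest and 3 smallest differences of longer lists on both arrays, and a few genes of these lists are not reported here by name. The steps were tested on simulated data. Software was limma 3.58.1 under R 4.3.3 for normexp only, and Python 3.11.15 (pandas 2.3.3, numpy 2.4.6, matplotlib 3.10.9) for quantile normalization and all else. The study's other assays were not analysed here.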

Additional observations from a re-analysis of the deposited data

How the results depend on the processing

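The 8 alternatives changed the background (normexp, offset 50), the scaling (quantiles, the authors' constants, or the 75th percentile or median of detected probes), the filter (none, or detection on both arrays) or the probe rule (mean). No paired analysis was possible because there is 1 array per cell type, and for the same reason no array could be left out. The number of members at least 2-fold lower was 2 under 7 of them and 1 with the mean over probes, which brings in the dimmer E2f7 probe. Of 80 values of single members, 78 shifted by under 0.32 log2, the SD between probes. This count was largely fixed in advance and is no measure of stability. Both filters left every member unchanged, since all their probes were detected on both arrays. Scaling by a constant shifts all members alike, and the mean leaves members with a single probe unchanged. With normexp E2f6 passed below E2f3, which turned 1 of the 15 pairs of repressor and activator, and with the mean E2f7 passed above E2f1 and E2f3, which turned 2. The 2 larger shifts were those of E2f7 with the mean, at -0.88 log2, and E2f3 with normexp, at -0.60 log2. The cause of the latter was not tested. The median of the members ranged from -0.85 to -0.64 log2, the activator minus repressor median from -0.26 to -0.17 log2, the G1 and S phase targets from -1.18 to -0.98 log2 and the G2 and mitosis targets from -0.54 to -0.33 log2. The apoptosis median ranged from -0.13 to 0.12 log2, so that its direction was not fixed. Over all genes, 429 were at least 2-fold higher and 750 lower with normexp, and 1192 and 2336 with no filter, over 22910 genes in place of 15515. With the authors' scaling 49.2% of the genes past 2-fold were higher, against 36.2% here.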
